A study of Mus musculus with 12 samples.

Results

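Gastruloids embedded in a stiffer gel were compared with gastruloids embedded in a soft gel, both embedded at 72 h after seeding. The comparison held 6 of the 12 libraries of the series, 3 from 1.5 mM and 3 from 1.0 mM hydrogels, and covered every gene that does not lie on the mitochondrial chromosome (55105 of the 55141 genes counted). Of these, 15563 had enough counts to be tested, 26502 of the other genes had no count in any of the 6 libraries, and 13040 had counts below the filter. Gastruloids are aggregates of mouse embryonic stem cells that form an antero-posterior axis in culture, here from 129/SVEV cells given a pulse of the Wnt agonist CHIR99021 before embedding. All groups shared this background and pulse, and all were grown in N2B27 medium until 120 h after seeding. The bioinert gels, crosslinked from dextran and PEG, were digested with dextranase at that time, and gastruloids were pooled for each poly-A library, so that a library averages many of them. The study asked whether stiffness at an early stage alters gene expression as well as the formation of a BRA/SOX2 pole, and the other 6 libraries, embedded at 96 h in the same 2 gels, are used here only side by side.

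In gastruloids, cells that express *T* (the gene of BRA) gather at 1 end and supply posterior mesoderm and, together with *Sox2*, neuromesodermal cells. Neural tube, somites, heart-like mesoderm, vessels and gut-like endoderm form along the axis. Cells can meet a change in force or confinement with immediate-early transcription factors, which need no new protein for their induction, with the SRF and YAP pathways that read the actin cytoskeleton, or with the integrated stress response, in which ATF4 induces genes of amino acid supply.

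With edgeR (quasi-likelihood test, 3 against 3 libraries), 0 of 15563 genes (0%) passed a Benjamini-Hochberg adjusted p below 0.05 with an absolute log2 fold change above 1. The smallest adjusted p was 0.423, and 1074 genes had an unadjusted p below 0.05. Of all genes tested, 4.0% were higher and 2.90% were lower in 1.5 mM gels at that unadjusted threshold, and the 3 libraries of one gel did not overlap those of the other for 5.91% (higher) and 5.19% (lower). These shares are the background for each count below. DESeq2 on the same libraries called 3 genes, all lower in 1.5 mM gels, or 0.0211% of the 14185 genes with an adjusted p. At any fold change it called 14 genes (0.0987%), 9 lower and 5 higher. At an unadjusted p below 0.05 DESeq2 had 1014 genes. limma-voom called 0 genes, with 1085 at an unadjusted p below 0.05. With the replicate number as a block, edgeR called 16 genes, all lower in 1.5 mM gels. The labels do not say what that number shares, so this fit is described under the processing below.

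The 95% interval of the log2 fold change lay within -1 to 1 for 13069 genes (84.0%) and within -0.5 to 0.5 for 8873 (57.0%). Of the 11268 genes whose mean reached 100 counts, 11016 (97.8%) lay within -1 to 1. The median SE of a log2 fold change was 0.132, and the median absolute log2 fold change was 0.120.

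Total counts ran from 23011791 to 25149780 per library, and mitochondrial genes took 1.68% to 2.60% of them. Over 5 library measures (total, mitochondrial share, ribosomal RNA share, genes detected and distance from the group mean), two-sided exact permutation tests between the gels gave p from 0.2 to 1, where 3 against 3 libraries cannot go below 0.1. Replicate 1 of the 1.5 mM gels stood apart. Its mean Pearson's r, in log2 CPM (counts scaled to the library size), was 0.987 with its own gel and 0.991 with the 1.0 mM libraries, and a ribosomal RNA locus on chromosome 17 took 6.12% of its counts, against 0.223% to 2.67% in the other 5. Without it, 2448 genes had an unadjusted p below 0.05 and the smallest adjusted p was 0.0700, whereas 518 and 338 genes had one without replicates 2 and 3 of the 1.5 mM gels, and edgeR called 0 genes each time. The study's methods call its replicates biological, while the labels do not say what a replicate number shares. The plot of the difference against the mean level places the genes named next within all genes tested.

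**Figure D1:**
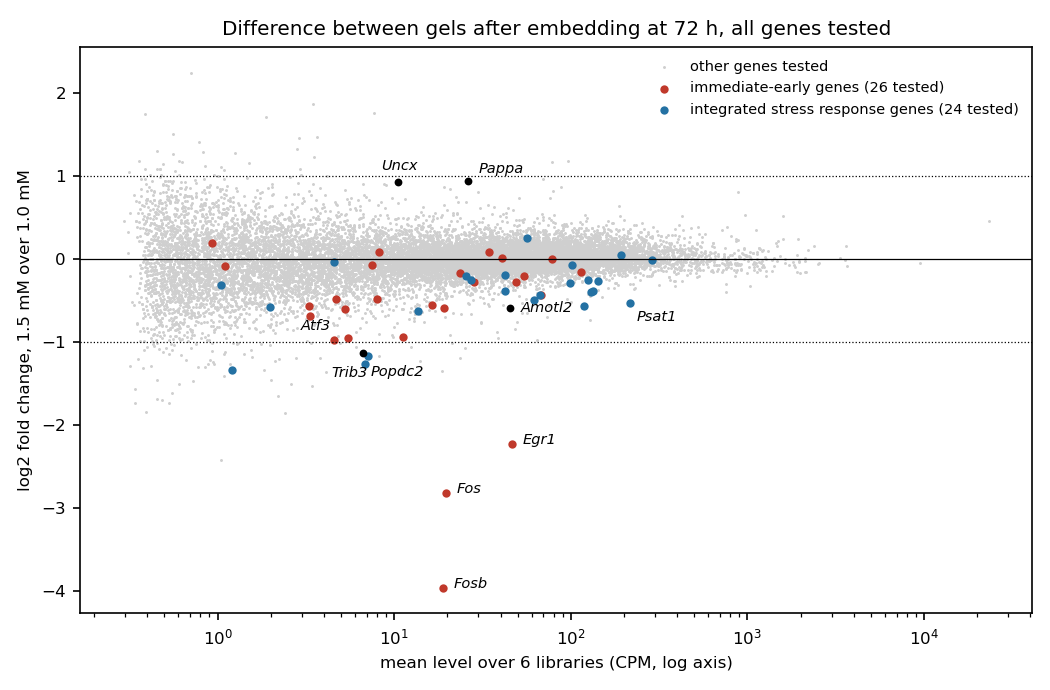
Log2 fold change between 1.5 mM and 1.0 mM gels (vertical axis) against the mean level over the 6 libraries (CPM, log axis); each point is 1 of the 15563 genes tested, with the 26 immediate-early genes in red, the 24 integrated stress response genes in blue, 4 other genes in black and dotted lines at -1 and 1. *Fosb*, *Fos* and *Egr1* lie below -2, and most of the red and blue points lie below 0.

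Immediate-early genes, among them the genes with the lowest fold changes named here, were lower in 1.5 mM gels wherever they passed the unadjusted threshold. Of 28 genes listed, 26 were tested. With an unadjusted edgeR p below 0.05 there were 14 lower and 0 higher members, 11 members had lower libraries in 1.5 mM gels without overlap, and the median log2 fold change was -0.46, against -0.00 over all genes tested. *Egr1* (ENSMUSG00000038418, chromosome 18), a zinc finger factor of the early response, was at 112, 67.6 and 48.5 CPM in replicates 1, 2 and 3 of the 1.0 mM gels and at 23.7, 14.2 and 10.9 CPM in those of the 1.5 mM gels. Every 1.5 mM library was below every 1.0 mM library, and in both gels replicate 1 was the highest. The log2 fold change was -2.23 (SE 0.326, 95% interval -2.95 to -1.50), with an adjusted p of 0.423 in edgeR and 0.0151 in DESeq2. Over the 17 alternatives for each gene, the adjusted p of *Egr1* ran from 4.89e-76 to 1.00. The lowest came from the edgeR fit without a filter on low counts.

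*Fos* and *Fosb*, which encode partners of JUN proteins in the AP-1 factor, had lower values still, with a size that depended on 1 library. *Fosb* was at 82.9, 17.8 and 5.45 CPM in 1.0 mM and at 3.61, 2.21 and 1.05 CPM in 1.5 mM gels, or -3.96 on the log2 scale (SE 0.875, unadjusted p = 0.00105, adjusted p = 0.698 with edgeR). *Fos* was at 78.9, 16.3 and 8.01 CPM in 1.0 mM and at 5.42, 4.95 and 4.22 CPM in 1.5 mM gels, or -2.82 on the log2 scale (SE 0.695, adjusted p = 0.698 with edgeR). The gels did not overlap for either gene, but the 1.0 mM libraries differed widely among themselves, with replicate 1 far above the others. When replicate 1 of the 1.0 mM gels was left out, *Fosb* was at -2.35 and *Fos* at -1.32 on the log2 scale, and the remaining libraries still did not overlap.

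Another 11 members had lower values with an unadjusted p below 0.05, and the remaining 12 of the 26 did not pass that threshold. *Atf3*, a bZIP factor that belongs to both the early and the stress response, was at 6.10, 6.24 and 5.87 CPM in 1.0 mM gels and at 3.17, 3.09 and 2.98 CPM in 1.5 mM gels. The gap between the gels was wider than the range within either. Its log2 fold change was -0.98 (SE 0.167), with an adjusted p of 0.698 in edgeR and 0.0206 in DESeq2, and it stayed between -1.01 and -0.95 when any library was left out. *Junb*, an AP-1 subunit, was at 20.2, 14.6 and 9.42 CPM against 7.32, 8.35 and 7.44 CPM (log2 fold change -0.93, SE 0.239). *Jund*, another AP-1 subunit, was at 80.8, 85.0 and 68.7 CPM against 57.5, 63.1 and 52.5 CPM (-0.44, SE 0.107). Feedback genes of the response went the same way, with log2 fold changes of -0.60 for *Dusp1*, a phosphatase of MAP kinases, and -0.61 for *Zfp36*, which destabilises short-lived mRNAs, the latter with overlapping gels. *Nr4a1* (-0.56), *Klf2* (-0.95), *Egr2* (-0.69), *Arc* (-0.48), *Maff* (-0.48) and *Btg2* (-0.28) complete the 14.

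The level of the whole list in a library, as the median deviation of its members from the mean of the 6 libraries in log2 CPM, was 0.43, 0.15 and -0.07 in 1.0 mM and -0.07, -0.14 and -0.32 in 1.5 mM gels, so that the gels overlapped narrowly. The number of members with an unadjusted p below 0.05 depended on the libraries used. Without replicate 1 of the 1.0 mM gels 6 members were lower, without replicate 3 of the 1.5 mM gels 8, and with any other library left out 11 to 15. None was higher in any of these fits.

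Promoter sequences of the response genes are shown as a description. The shares given cover the whole lists, with members that did not pass the unadjusted threshold, and the 5 windows printed all hold a match. RefSeq windows (GRCm38.p6) were found for 21 of the 28 immediate-early genes and 23 of the 26 stress response genes, and the 250 bases before each start were searched on both strands. The letters TGACG, the core of a cyclic AMP response element, were in 14 of 21 immediate-early genes (66.7%), 6 of 23 stress response genes (26.1%) and 19.8% of all 27025 genes. A CArG box, the site of SRF, was in 3 of 21 (14.3%), 0 of 23 and 1.62%. The letters TGATGNAA, the core of the composite site of ATF4 and C/EBP factors, were in 1 of 21 (4.76%), 6 of 23 (26.1%) and 3.91%. A match is only a description of the window, and TGACG can overlap the other motifs. Capitals mark the matches to TGACG and TGATGNAA on either strand in 5 genes, of which *Fos* (chr12:85473640-85473889, plus strand), *Fosb* (chr7:19310046-19310295, minus strand) and *Junb* (chr8:84978749-84978998, minus strand) encode AP-1 subunits, while *Atf3* (chr1:191183334-191183583, minus strand) and *Asns* (chr6:7693210-7693459, minus strand) hold both motifs.
Fos: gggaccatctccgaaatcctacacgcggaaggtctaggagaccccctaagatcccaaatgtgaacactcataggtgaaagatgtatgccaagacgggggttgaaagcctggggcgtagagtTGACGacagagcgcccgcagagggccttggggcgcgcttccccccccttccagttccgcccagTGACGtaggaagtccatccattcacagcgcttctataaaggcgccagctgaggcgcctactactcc
Fosb: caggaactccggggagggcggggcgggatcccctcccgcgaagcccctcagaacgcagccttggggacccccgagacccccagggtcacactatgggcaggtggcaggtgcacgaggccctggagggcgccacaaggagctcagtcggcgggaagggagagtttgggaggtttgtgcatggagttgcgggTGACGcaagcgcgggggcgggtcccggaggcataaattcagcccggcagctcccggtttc
Junb: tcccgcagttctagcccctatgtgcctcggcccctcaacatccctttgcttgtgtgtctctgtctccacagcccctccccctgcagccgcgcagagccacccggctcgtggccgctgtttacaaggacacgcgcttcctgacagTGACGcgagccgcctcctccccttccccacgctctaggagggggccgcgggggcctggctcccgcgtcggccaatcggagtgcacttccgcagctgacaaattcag
Atf3: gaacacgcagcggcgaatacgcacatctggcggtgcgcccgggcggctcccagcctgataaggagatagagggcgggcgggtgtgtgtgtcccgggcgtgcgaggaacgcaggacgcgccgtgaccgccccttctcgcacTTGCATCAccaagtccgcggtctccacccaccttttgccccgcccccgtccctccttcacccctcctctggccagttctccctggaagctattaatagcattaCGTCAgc
Asns: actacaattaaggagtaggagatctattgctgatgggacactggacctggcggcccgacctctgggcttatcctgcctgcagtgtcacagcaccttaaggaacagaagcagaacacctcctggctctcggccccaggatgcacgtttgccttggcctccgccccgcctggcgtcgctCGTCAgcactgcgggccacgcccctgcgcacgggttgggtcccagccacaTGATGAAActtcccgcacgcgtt
The TGACG match of *Fosb* lies 60 to 56 bases before the start and the nearer of the pair in *Fos* 66 to 62 bases before it.

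**Figure D2:**
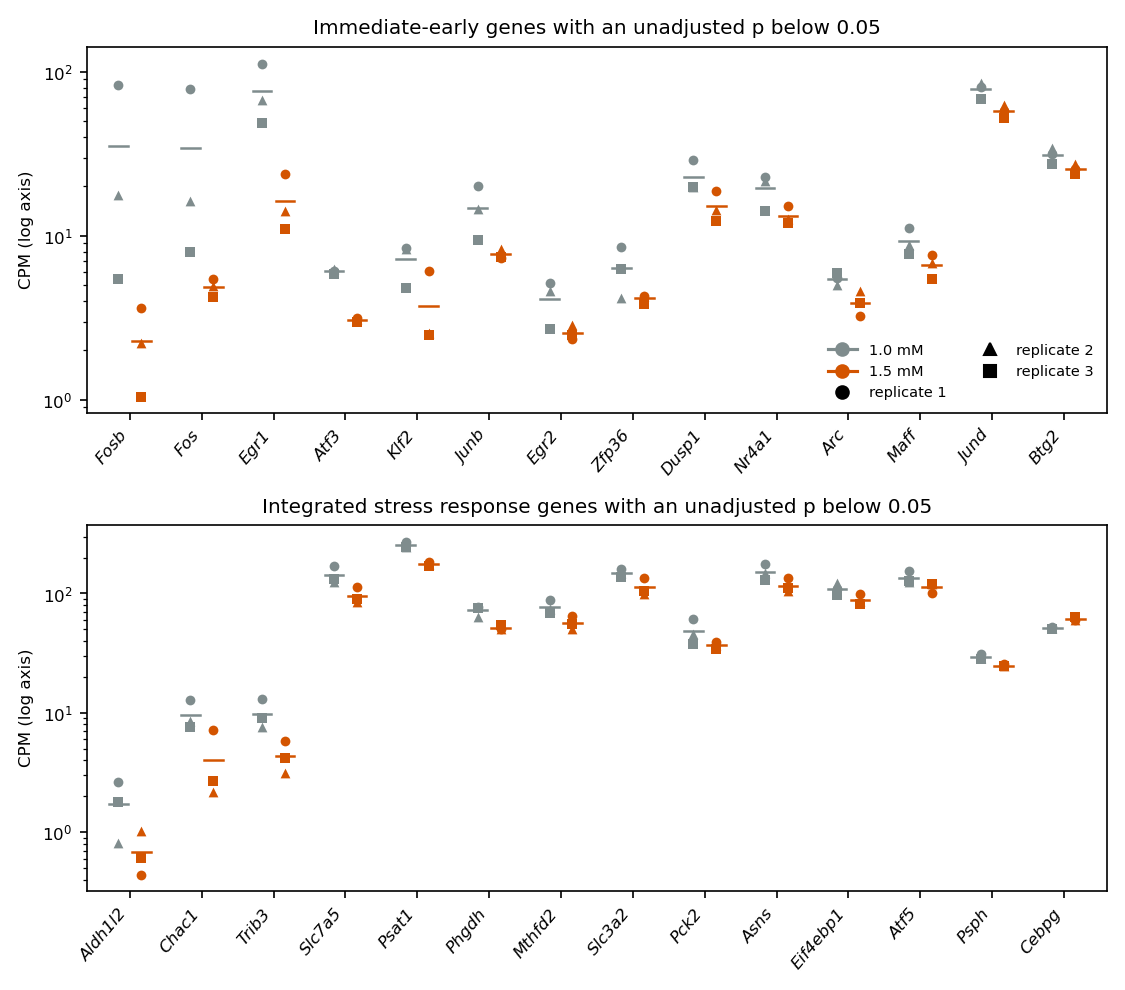
Level in each library (CPM, log axis) of the 14 immediate-early genes (top) and the 14 integrated stress response genes (bottom) with an unadjusted p below 0.05; grey stands for 1.0 mM and orange for 1.5 mM gels, circles, triangles and squares for replicates 1, 2 and 3, and bars for means. For *Fos* and *Fosb* the grey points spread widely and replicate 1 is the highest, whereas those of *Atf3* and *Psat1* lie close together above the orange points.

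Genes of the integrated stress response also had lower values in 1.5 mM gels for most of the members past the unadjusted threshold. Of 26 genes listed, 24 were tested, 13 had an unadjusted p below 0.05 with lower values and 1 with higher values, 9 did not overlap on the lower side, and the median log2 fold change was -0.35. *Psat1* (ENSMUSG00000024640, chr19:15904678-15947337 in mm10), an enzyme of serine synthesis, was at 271, 247 and 244 CPM in 1.0 mM and at 184, 177 and 169 CPM in 1.5 mM gels. The gap between the gels was wider than the whole range within either gel. Its log2 fold change was -0.52 (SE 0.0792, 95% interval -0.70 to -0.35), with an adjusted p of 0.423 in edgeR and 4.02e-04 in DESeq2, the smallest that DESeq2 gave, and a range from 3.46e-05 to 1.00 over the 17 alternatives. *Phgdh*, which opens the same pathway, was at 77.3, 63.9 and 76.2 CPM against 50.5, 50.2 and 54.0 CPM (log2 fold change -0.49, SE 0.0963, DESeq2 adjusted p = 0.0299). *Psph*, which closes it, was lower by less (-0.25, SE 0.0924).

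*Trib3* (ENSMUSG00000032715, chr2:152337422-152344032), a pseudokinase induced by ATF4, was at 13.0, 7.58 and 9.01 CPM in 1.0 mM and at 5.77, 3.14 and 4.22 CPM in 1.5 mM gels. The gels did not overlap, and the log2 fold change was -1.17 (SE 0.260, 95% interval -1.75 to -0.59), with an adjusted p of 0.698 in edgeR and 0.0145 in DESeq2 and a range from 1.35e-06 to 1.00 over the 17 alternatives. Of the genes for amino acid transport, *Slc7a5* was at 170, 124 and 132 CPM against 113, 85.2 and 89.7 CPM (-0.56, SE 0.140), and its partner *Slc3a2* had a log2 fold change of -0.39 (SE 0.119). *Asns*, asparagine synthetase, overlapped between the gels, at 177, 148 and 129 CPM against 134, 104 and 110 CPM (-0.38, SE 0.131). *Mthfd2* and *Aldh1l2*, enzymes of mitochondrial folate metabolism, had log2 fold changes of -0.44 and -1.34, and *Chac1*, which degrades glutathione, had -1.27 (SE 0.392), or -2.0 without replicate 1 of the 1.5 mM gels. *Pck2* (-0.39), *Eif4ebp1* (-0.29) and *Atf5* (-0.25) complete the lower members, and the factor *Cebpg* was the single higher one (0.25, SE 0.0789).

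The level of the list per library was 0.35, 0.12 and 0.01 in 1.0 mM and -0.01, -0.26 and -0.22 in 1.5 mM gels, without overlap. Of the 45 lists described, 3 were lower in every 1.5 mM library by this measure (integrated stress response, epithelial, and endoderm and gut) and 2 were higher (Notch and segmentation clock, and Wnt feedback), which is near the shares of single genes without overlap given above and is no result about these lists. The number of lower members was between 9 and 16 when any library was left out. Neighbouring stress pathways were not lower as lists, with medians of 0.04 for the unfolded protein response, 0.03 for heat shock and 0.01 for p53 targets. Of 10 heat shock genes 3 were higher and 2 lower at an unadjusted p below 0.05, among them the chaperones *Hspa8* (0.24), *Hsp90aa1* (0.30) and *Hspb1* (-0.76), for which the gels overlapped. Without replicate 1 or 2 of the 1.0 mM gels or replicate 3 of the 1.5 mM gels, 0 were higher and 0 lower, without replicate 3 of the 1.0 mM gels 0 were higher, and without replicate 2 of the 1.5 mM gels 0 were higher and 1 lower.

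The genes of the pole, *T* and *Sox2*, and the anterior marker *Foxc1* were measured next. *T* was at 236, 288 and 223 CPM in 1.0 mM and at 178, 228 and 199 CPM in 1.5 mM gels, which overlapped (log2 fold change -0.30, 95% interval -0.56 to -0.04). *Sox2* was at 17.9, 20.2 and 23.5 CPM against 23.2, 20.2 and 20.8 CPM (0.06, interval -0.22 to 0.34), and *Foxc1*, a mesoderm factor, at 131, 176 and 204 CPM against 169, 190 and 204 CPM (0.14, interval -0.18 to 0.46). For *Sox2* and *Foxc1* the intervals lay within -0.5 to 0.5, and without replicate 1 of the 1.0 mM gels the values were -0.03 and -0.02. Among 19 posterior and neuromesodermal genes tested, 3 were lower and 1 was higher at an unadjusted p below 0.05, with a median of -0.10. The lower genes besides *T* were *Cdx2*, a caudal homeobox gene (-0.60, SE 0.246), and *Sp5*, a Wnt target (-0.66, SE 0.195), and the higher gene was *Fgf17* (1.12, SE 0.389), which was at 0.413 to 0.674 CPM in 1.0 mM gels.

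Markers of the node and notochord were lower for 3 of 15 genes, with a median of -0.22. *Noto*, a homeobox gene of the node, was at 5.26, 6.89 and 7.68 CPM in 1.0 mM and at 3.00, 4.20 and 2.7 CPM in 1.5 mM gels without overlap, or -1.01 on the log2 scale (SE 0.226, adjusted p = 0.698 with edgeR). *Foxj1*, the regulator of motile cilia (-0.44), and *Foxa2* (-0.27) overlapped between the gels. In bulk libraries, fewer cells of a type and less RNA per cell cannot be told apart.

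Somite and sclerotome genes had 3 higher and 0 lower members of 16, with a median of 0.19. *Uncx* (ENSMUSG00000029546, chr5:139543494-139548179), which marks the caudal part of each somite, was at 6.32, 6.89 and 8.63 CPM in 1.0 mM and at 11.7, 14.7 and 15.1 CPM in 1.5 mM gels. Each 1.5 mM library exceeded each 1.0 mM library, with a log2 fold change of 0.92 (SE 0.168, 95% interval 0.55 to 1.3) and an adjusted p of 0.698 in edgeR and 0.00355 in DESeq2 (9.88e-07 to 1.00 over the 17 alternatives). *Foxd1* (0.68, SE 0.228) and *Pax3* (0.52, SE 0.205) overlapped between the gels. The level of the list was -0.40, -0.29 and 0.39 in 1.0 mM and -0.21, 0.24 and 0.46 in 1.5 mM gels, with more spread within a gel than between them, and the median was 0.56 without replicate 3 of the 1.0 mM gels, 0.36 without replicate 1 of the 1.5 mM gels, 0.06 without replicate 1 of the 1.0 mM gels and 0.03 without replicate 3 of the 1.5 mM gels. In the neural tube list 3 of 14 genes were higher and 1 was lower. They were *Irx5* (0.49), *Irx3* (0.26) and *Pax3*, and *Lmx1a* of the roof plate (-0.42). Presomitic mesoderm, endothelium and blood, and intermediate and lateral plate mesoderm had 0 members of 12, 18 and 11 at an unadjusted p below 0.05 in either direction. *Dll1*, *Kdr* and *Hand1* had log2 fold changes of 0.40, 0.14 and -0.52.

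Cardiac and anterior mesoderm genes had the lowest median of any list with more than 2 genes tested, -0.55, and 21 of the 22 members had a negative value. The replicates were widely spread, however, so that 5 members had an unadjusted p below 0.05 and 1 did not overlap. *Popdc2* (ENSMUSG00000022803, chr16:38362209-38378216), a cyclic AMP-binding membrane protein of striated muscle, was at 10.2, 6.04 and 11.3 CPM in 1.0 mM and at 5.91, 3.40 and 3.30 CPM in 1.5 mM gels. It was the non-overlapping member, with a log2 fold change of -1.13 (SE 0.286, 95% interval -1.77 to -0.49) and an adjusted p of 0.698 in edgeR and 0.0436 in DESeq2 (9.03e-06 to 1.00 over the 17 alternatives). Sarcomere genes overlapped between the gels. *Tnnt2*, cardiac troponin T, was at 57.4, 15.4 and 29.6 CPM against 25.9, 12.1 and 10.8 CPM (-1.07, SE 0.438), and *Myh6*, the alpha myosin heavy chain, at 21.7, 4.50 and 8.01 CPM against 7.54, 4.02 and 3.62 CPM (-1.17, SE 0.50). *Tnni1* (-0.96) and *Myl3* (-0.93) were the remaining ones. Replicate 1 held the highest level of these 4 genes in each gel. The list median was -0.14 without replicate 1 of the 1.0 mM gels, with 1 lower member and log2 fold changes of -0.47 for *Tnnt2* and -0.31 for *Myh6*. It was -0.94 without replicate 1 of the 1.5 mM gels, with 17 lower members, where 7.23% of all genes tested were lower.

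Endoderm and gut genes were lower for 7 and higher for 1 of 18, with a median of -0.27. *Cldn6* and *Krt8* are among the lower ones and are counted in the epithelial list below too, so these lists are not separate. *Spink1*, a trypsin inhibitor of the gut, was at 33.3, 27.8 and 19.1 CPM in 1.0 mM and at 16.7, 7.73 and 7.12 CPM in 1.5 mM gels without overlap, or -1.35 on the log2 scale (SE 0.310). *Foxa1* was at 21.6, 23.7 and 28.5 CPM against 17.8, 19.9 and 18.7 CPM (-0.39, SE 0.125). *Ttr*, transthyretin (-1.86, SE 0.614), and the peptide *Apela* (-0.91, SE 0.265) overlapped between the gels, and *Hhex* was the higher member (0.48, SE 0.153). Without replicate 1 of the 1.0 mM gels the median was -0.16 and 4 members were lower. Extraembryonic markers, of which *Ttr* and *Cdx2* are in other lists too, were lower for 4 and higher for 1 of 13, with a median of -0.42 that was -0.17 without replicate 1 of the 1.0 mM gels and -0.24 without replicate 3 of the 1.5 mM gels. Without replicate 1 of the 1.0 mM gels *Ttr* was at -1.03 on the log2 scale. Neural crest and naive pluripotency lists held 1 lower member each, *Erbb3* (-0.42) and *Klf4* (-0.50).

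**Figure D3:**
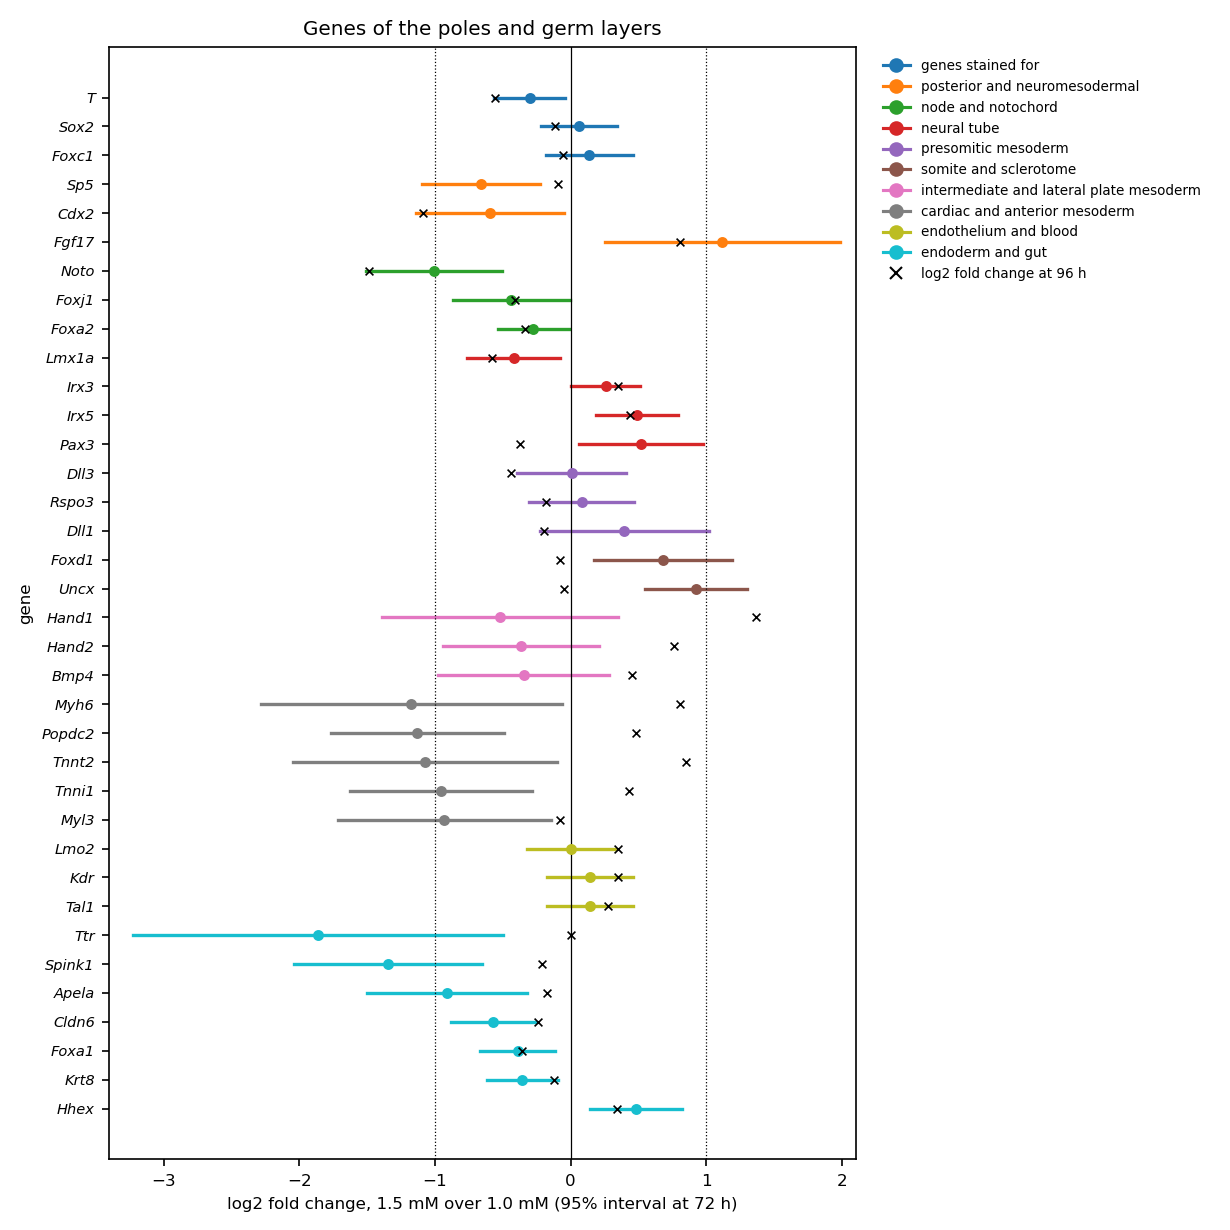
Log2 fold change between 1.5 mM and 1.0 mM gels at 72 h with its 95% interval (points and lines, colored by gene list) and the log2 fold change at 96 h (crosses) for the named genes of the poles and germ layers; dotted lines mark -1 and 1. *T*, *Sox2* and *Foxc1* have short lines. *Sox2* and *Foxc1* lie near 0, and *T* (-0.30) lies below 0 with its whole line. The lines of cardiac genes are long and their crosses lie to the right.

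Epithelial genes were lower for 7 and higher for 0 of 21, 19 of the 21 values were negative, and the median was -0.25. *Cldn6*, a tight junction protein, was at 82.9, 86.3 and 99.1 CPM in 1.0 mM and at 70.0, 64.0 and 46.8 CPM in 1.5 mM gels, or -0.57 on the log2 scale (SE 0.140). *Krt8*, a keratin of simple epithelia, was at 204, 171 and 173 CPM against 150, 159 and 119 CPM (-0.36, SE 0.117). *Esrp2*, a splicing factor of epithelial cells, was lower without overlap at 1.64, 2.19 and 2.02 CPM against 0.793, 0.883 and 0.966 CPM (-1.15, SE 0.266). Its mean was only 34 counts, and its FPKM from Cufflinks was 0 in both gels. *Esrp1* had a log2 fold change of -0.36. *Cldn4* (-0.47), *Cgn* (-0.30) and *Ovol2* (-0.91) were the others. The level of the list was 0.25, 0.10 and 0.05 in 1.0 mM and -0.03, -0.07 and -0.30 in 1.5 mM gels. Without replicate 3 of the 1.5 mM gels the median was -0.13 and 2 members were lower, and without replicate 1 of the 1.0 mM gels 3 were. Of 17 genes of the mesenchymal transition, with a median of 0.15, 3 were higher, namely *Snai1* (0.63, SE 0.233), *Twist1* (0.30) and *Cdh2* (0.39), each with overlapping gels. Without either replicate 2 or replicate 3 of the 1.5 mM gels 0 were higher, without replicate 2 of the 1.0 mM gels 1, and without replicate 3 of the 1.0 mM or replicate 1 of the 1.5 mM gels 6.

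Genes that carry out or sense mechanical interaction moved little as lists. The 31 genes of cell motility had a median of -0.01, and the intervals of 30 lay within -1 to 1. *Rock1* and *Rock2*, the kinases that drive actomyosin contraction, were higher without overlap, with log2 fold changes of 0.22 (SE 0.0902) and 0.23 (SE 0.0868), and so was *Enah* (0.22). *Rnd3* (-0.35) and *Rhob* (-0.31) were lower with overlap. SRF and actin targets had a median of -0.03 over 22 genes, with *Tpm2* (0.33) higher and *Fhl2* (-0.36) lower. Mechanosensitive channels and focal adhesion genes had a median of -0.02 over 18, all 18 intervals lay within -1 to 1, and *Pkd2* (0.18) alone had an unadjusted p below 0.05.

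Targets of YAP and TAZ were lower for 3 and higher for 1 of 23, with a median of -0.14. *Amotl2*, an angiomotin that binds YAP, was at 56.6, 48.9 and 57.5 CPM in 1.0 mM and at 39.3, 37.0 and 32.4 CPM in 1.5 mM gels without overlap (log2 fold change -0.59, SE 0.103, 95% interval -0.82 to -0.36). Its adjusted p was 0.698 in edgeR and 0.00780 in DESeq2. *Ccn1*, a secreted matrix protein, was at 19.2, 14.4 and 14.5 CPM against 9.70, 11.7 and 7.97 CPM (-0.71, SE 0.177), *Ajuba*, a LIM protein of junctions, had a log2 fold change of -0.33, and *Myof* was higher (0.60). The matrix lists had medians of -0.02 for 22 integrin and laminin subunits, 0.00 for 22 collagen chains and, further from 0, -0.15 for 25 matrix proteases and inhibitors. *Itga3* (-0.62), *Adamts18* (-0.88) and *Timp4* (-0.63) were lower and *Mmp16*, a membrane metalloprotease (0.75), was higher without overlap, while *Lamb1* (0.43), *Lama1* (0.27), *Col13a1* (0.62) and *Col23a1* (0.37) were higher with overlap.

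**Figure D4:**
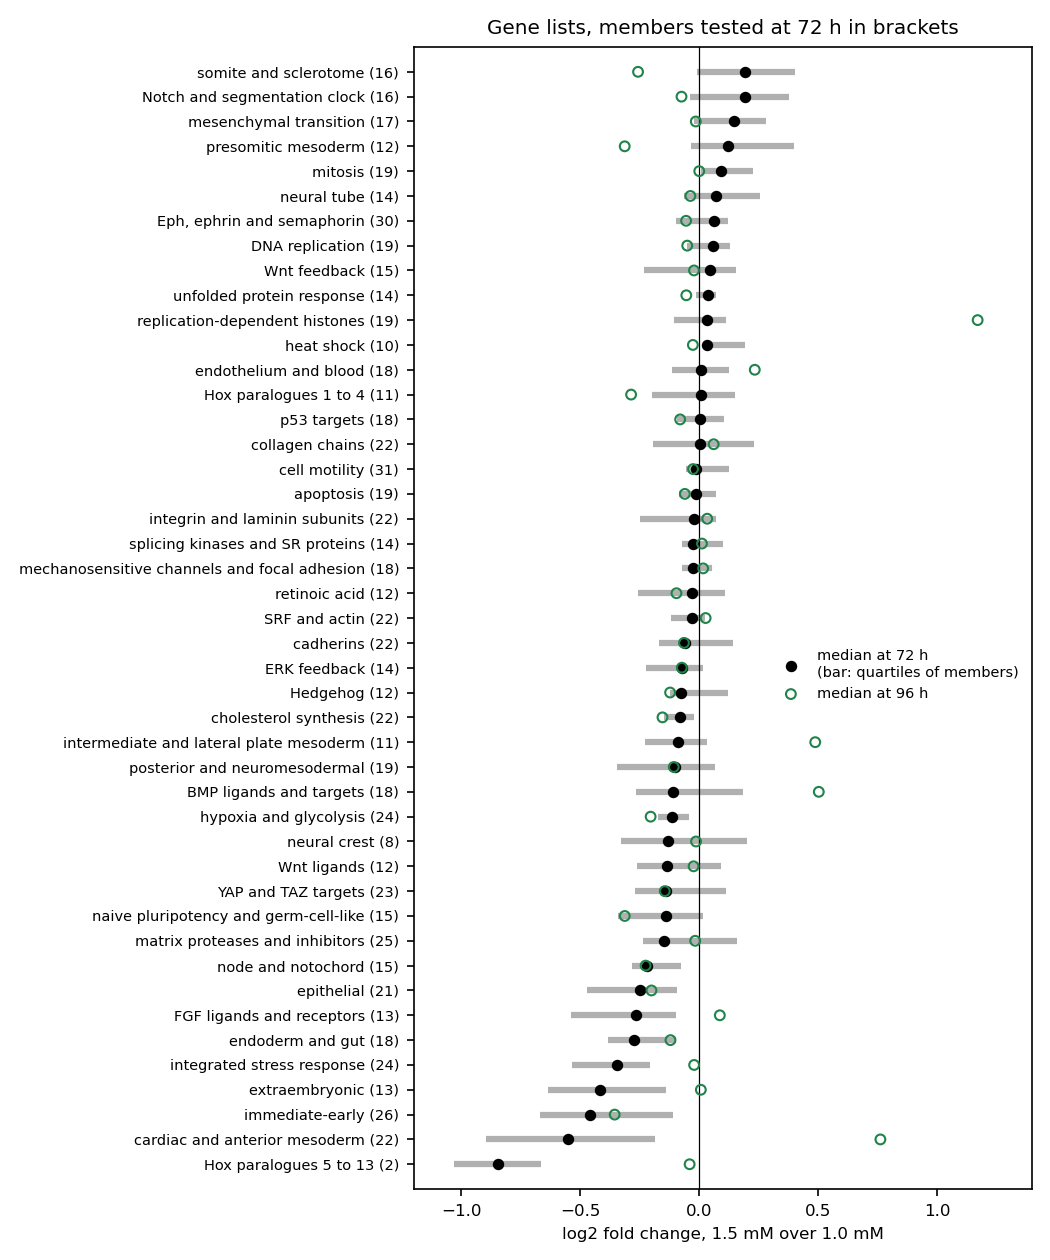
Median log2 fold change between 1.5 mM and 1.0 mM gels of the tested members of 45 gene lists at 72 h (filled points, with bars from the lower to the upper quartile of the members) and at 96 h (open circles). Cardiac, immediate-early and stress response genes lie at the lower end at 72 h, motility, collagen and integrin lists lie near 0, and the cardiac list is at 0.76 at 96 h.

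Among signalling genes, the Notch pathway was higher for 3 and lower for 0 of 16, with a median of 0.19. *Hey1*, a transcriptional repressor induced by Notch, was at 32.2, 35.6 and 38.7 CPM in 1.0 mM and at 44.1, 55.1 and 52.0 CPM in 1.5 mM gels without overlap (log2 fold change 0.51, SE 0.109). The receptor *Notch1* (0.37, SE 0.106) and the ligand *Jag1* (0.20, SE 0.0873) did not overlap either. The level of the list was -0.08, -0.05 and -0.10 in 1.0 mM and 0.03, 0.19 and 0.12 in 1.5 mM gels. Of 15 Wnt feedback genes, *Axin2* (0.43) and *Lgr5* (0.44) were higher and *Sp5* was lower, while *Wnt2b* (0.85) and *Wnt16* (0.99) were higher among 12 ligands. Feedback genes that limit ERK signalling had a median of -0.07 over 14 genes, with *Spry1* (-0.35), *Spred3* (-0.21) and *Dusp6* (-0.23) lower. Retinoic acid genes had 1 lower member of 12, *Crabp2* (-0.44), and Hedgehog genes none of 12, with *Smo* at -0.10.

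Growth lists differed by small amounts with narrow intervals. Mitosis genes were higher for 4 and lower for 0 of 19, with a median of 0.09, and all 19 intervals lay within -1 to 1. *Mki67*, a marker of cycling cells, was at 427, 371 and 339 CPM against 409, 497 and 543 CPM with overlap (log2 fold change 0.35, SE 0.122), and *Cenpf* was higher without overlap (0.24). Without replicate 3 of the 1.5 mM gels 0 members were higher, and without replicate 2 of the 1.0 mM gels 1. Of 19 DNA replication genes *Rrm1* (0.24) and *Mcm3* (0.21) were higher. Of 19 apoptosis genes *Hrk* (-1.24), which encodes a BH3-only protein, was lower.

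The 10 higher and 10 lower genes with the lowest p, taken from non-overlapping genes whose mean reached 100 counts, include several outside the lists. *Pappa*, a protease that cleaves IGF-binding proteins, was at 21.5, 14.5 and 17.6 CPM in 1.0 mM and at 24.3, 34.6 and 43.5 CPM in 1.5 mM gels, or 0.94 on the log2 scale (SE 0.206, DESeq2 adjusted p = 0.00780). *Nbl1*, a secreted BMP antagonist, was at 5.47, 5.68 and 7.15 CPM against 8.2, 12.5 and 13.6 CPM (0.91, SE 0.208, DESeq2 adjusted p = 0.0379). Replicate 1 was the lowest of the 1.5 mM libraries for both. *Fzd7*, a Wnt receptor, was at 200, 182 and 218 CPM against 238, 273 and 289 CPM (0.41, SE 0.0992). *Pcf11*, a factor of mRNA 3′ end formation (0.50), *Fnip1* (0.45), *Plaa* (0.34), *Phf13* (0.35) and *Foxd2os* (0.74) were the others on the higher side. The strand setting of the counts is not given in the sources used here, so reads of *Foxd2os*, an antisense gene, may include those of its neighbor. On the lower side were *Syde1* at 18.9, 15.9 and 17.8 CPM against 11.9, 10.5 and 11.2 CPM (-0.64, SE 0.125), *Ddah1* at 16.7, 14.7 and 16.2 CPM against 10.7, 11.4 and 9.86 CPM (-0.58, SE 0.126), and *Garnl3* (-0.54, SE 0.109). Their values chose these 20 genes, so their p-values are a description. DESeq2 gave *Syde1*, *Garnl3*, *Pcf11* and *Foxd2os* an adjusted p between 0.0299 and 0.0436. Over the 17 alternatives the adjusted p of the 14 genes that DESeq2 called at any fold ran from 4.89e-76 to 1.00. The lowest was that of *Egr1* in the edgeR fit without a filter on low counts. None of these genes changed sign.

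**Figure D5:**
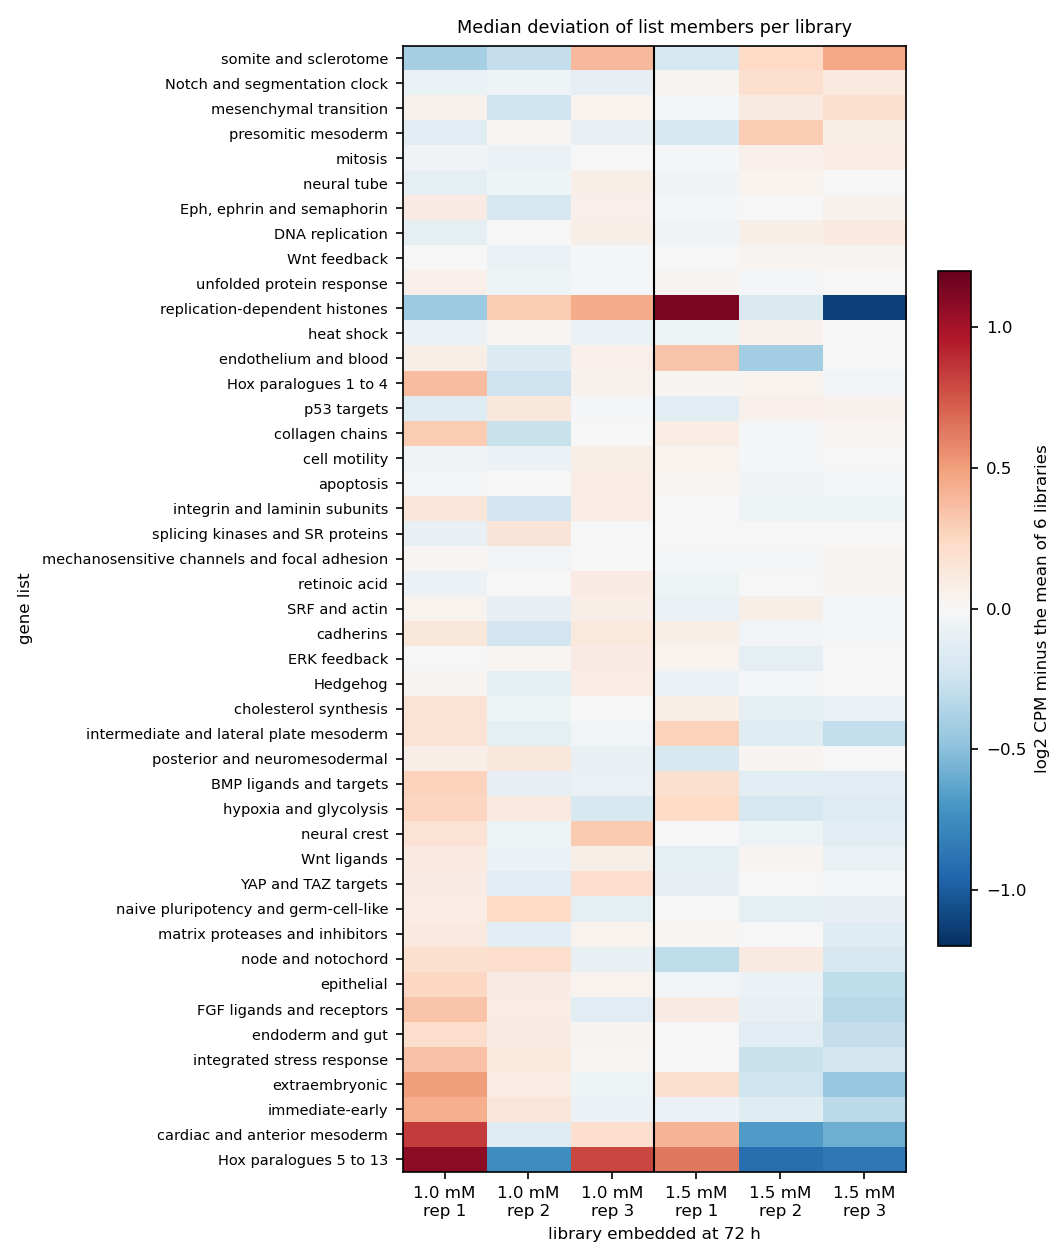
Level of each of the 45 gene lists in each of the 6 libraries, as the median deviation of the members from the mean over the libraries (log2 CPM, red above and blue below); a line separates 1.0 mM from 1.5 mM gels. Replicate 1 of the 1.5 mM gels resembles replicate 1 of the 1.0 mM gels for cardiac, glycolysis and BMP lists, and the histone list ranges from -1.12 to 1.13 within the 1.5 mM gels.

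The same gels after embedding at 96 h share no library with those at 72 h. Whether the difference between gels depended on the time of embedding was tested as an interaction in all 12 libraries, and 0 of 16388 genes (0%) passed the thresholds (edgeR), with 708 at an unadjusted p below 0.05 and 0 called by DESeq2 (700 at an unadjusted p below 0.05) and by limma-voom (752). At any fold change DESeq2 called 2 genes, *Uncx* and *Lhfpl2*, the latter named after its value was seen. Across the 15563 genes tested at 72 h, Pearson's r between the log2 fold changes at 72 h and 96 h was 0.15. It is given as a description, since genes are not independent replicates and each embedding time shares its libraries across all genes. At 96 h, 16 of 26 immediate-early genes were lower and 0 higher in 1.5 mM gels at an unadjusted p below 0.05, against 3.48% of all genes tested that were lower, and 22 of the 26 values were negative (7961 of 15563 over all genes), with a median of -0.36. *Egr1* was then at 132, 36.6 and 41.4 CPM in 1.0 mM and at 21.7, 10.6 and 15.6 CPM in 1.5 mM gels, or -2.13 on the log2 scale (SE 0.461), again without overlap. *Fosb* (-3.33), *Fos* (-2.20), *Junb* (-0.79) and *Jund* (-0.56) were lower as well, and at both times replicate 1 of the 1.0 mM gels had the highest *Fos* and *Fosb*. *Noto* (-1.49) and *Amotl2* (-0.43) also kept their sign.

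Other groups had different values at 96 h. The stress response list was at -0.02, with -0.20 for *Psat1*, 0.14 for *Trib3* and -0.05 for *Chac1*. *Uncx* was at 22.8, 20.4 and 19.7 CPM against 20.4, 21.0 and 19.4 CPM (log2 fold change -0.05), and its interaction had an unadjusted p of 9.80e-05 and an adjusted p of 0.953 in edgeR. In DESeq2 the interaction of *Uncx* was 0.98 (SE 0.192, adjusted p = 0.0104), just inside the fold-change threshold. The cardiac list was at 0.76 and 1 of 22 values was negative. Log2 fold changes were 0.48 for *Popdc2* (SE 0.415, with overlapping gels), 0.85 for *Tnnt2* and 0.81 for *Myh6*. The unadjusted p of their interactions was 0.0138, 0.0363 and 0.0322, and the adjusted p 0.953 each. The somite list was at -0.26 and the Notch list at -0.07, although *Hey1* was higher at both times (0.56 at 96 h).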

How the data were processed

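The authors deposited raw counts per gene, made from stranded paired-end reads mapped to mm10 with a custom Ensembl annotation, and a table of FPKM values from Cufflinks, which gave the gene symbols here. The submitters' processing notes name cutadapt 4.4, STAR 2.7.10b, Cufflinks 2.2.1.3 and DESeq2. A deposited table of the authors' own comparisons (fold changes and p-values) was not used. The strand setting of the counting is not given in the sources used here. Genes of the mitochondrial chromosome were left out.

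Counts of the 6 libraries embedded at 72 h were tested with edgeR 4.0.16 in R 4.3.3 (TMM, quasi-likelihood test, with genes kept by filterByExpr at 10 counts in enough libraries and 15 in total) for 1.5 mM over 1.0 mM. A gene was called where its log2 fold change was beyond -1 or 1 and its p, adjusted by Benjamini-Hochberg, was below 0.05. The interaction with the time of embedding was fitted on all 12 libraries. DESeq2 1.42.0 and limma 3.58.1 (voom), other normalizations and filters, a replicate block and leaving out each library were alternatives. DESeq2 at any fold change (between the gels and for the interaction) and the counts per list without each library were added after the data were seen. The code was tested on simulated data.

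Named genes were *T*, *Sox2* and *Foxc1*, genes called by DESeq2, the 10 higher and 10 lower non-overlapping genes with the lowest p at a mean of at least 100 counts, and in each list the members with an unadjusted p below 0.05 or else up to 3 with the highest level. Not every such gene is named. The gene lists and the members were chosen with earlier results of these data known, so lists are described by counts and medians without a test. Some results are not reported here.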

Additional observations from a re-analysis of the deposited data

How the results depend on the processing

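Between the gels at 72 h, edgeR called 0 genes, and 0 also with limma-voom, other normalizations, a stricter filter, mitochondrial genes kept, all 12 libraries, no fold-change threshold, an adjusted p below 0.1, or any of the 6 libraries left out. DESeq2 called 3 genes (3 also on all 12 libraries, 1 of them higher) and 14 without the fold-change threshold, an alternative chosen after seeing the data. Without a filter on low counts edgeR called 57 genes, 17 higher and 40 lower. The interaction was called for 0 genes, apart from 112 without the filter on low counts, 4 with the replicate block and 2 by DESeq2 without the fold-change threshold, also chosen after seeing the data.

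With the replicate number as a block, edgeR called 16 genes between the gels, all lower, among them *Egr1*, *Fos*, *Fosb*, *Trib3*, *Chac1*, *Spink1*, *Ttr* and *Tnnt2*, and DESeq2 called 17. The labels do not say what a number shares. Same-numbered libraries deviated together with correlations of 0.17, 0.19 and 0.07 over all genes tested (0.22, 0.33 and 0.13 over genes with a mean of 100 counts). The lowest of the former, 0.07, is under 0.1, so that the numbers were not taken as pairs. Each library of the soft gel nevertheless correlated best with the library of its own number in the stiffer gel. The same check was not made for the libraries of the stiffer gel. All of the correlations given are above 0, so whether the numbers mark pairs was not settled. The 0 genes called by edgeR hold for libraries taken as unpaired.

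With each library left out in turn, *Sox2* ranged from -0.030 to 0.17 (-0.0071 without replicate 1 of the 1.5 mM gels), *Foxc1* from -0.021 to 0.29 and *Hand1* from -0.94 to 0.10 on the log2 scale. The negative values of *Sox2* and *Foxc1*, apart from the one given for 1.5 mM, and the positive value of *Hand1* were those without replicate 1 of the 1.0 mM gels. The cause of these changes was not tested. Of the list medians under all alternatives, 442 moved by less than the spread between replicates and 8 by more. That spread is the list's own, so a list with widely spread replicates can move far and still be among the 442. The cardiac list is a case, at -0.55 with all libraries. It was at -0.14 without replicate 1 of the 1.0 mM gels and at -0.94 without replicate 1 of the 1.5 mM gels. With 3 libraries a gel and a median SE of 0.132, small differences in genes of low count were not detectable. Large differences in genes with more counts could miss the threshold too. *Egr1*, with a mean of 1107 counts and a log2 fold change of -2.23, had an adjusted p of 0.423 in edgeR. The edgeR fit of the same libraries with the replicate number as a block gave *Egr1* an adjusted p of 3.79e-07.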

Other observations

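*Id1*, *Id3* and *Smad7*, direct targets of BMP and SMAD signalling, were each higher in 1.5 mM gels without overlap, *Id3* at 210, 224 and 224 CPM in 1.0 mM and at 263, 252 and 239 CPM in 1.5 mM gels. Their log2 fold changes were 0.19, 0.20 and 0.41 at 72 h and 1.01, 0.88 and 1.25 at 96 h, and none of the interactions passed the threshold (edgeR adjusted p = 0.953 each). The 18 BMP ligands and targets had a median of -0.11 at 72 h and 0.50 at 96 h. At 72 h, 3 of the 18 were higher and 0 lower at an unadjusted p below 0.05, while 11 values were negative. In the edgeR fit of all 12 libraries 0 members passed that threshold in either direction. Without replicate 1 of the 1.5 mM gels 2 were higher and 4 lower. *Efnb1* (0.26) and *Efnb2* (0.32), ligands of Eph receptors, were the members of 30 Eph, ephrin and semaphorin genes with an unadjusted p below 0.05. Among 22 cadherins *Cdh3*, P-cadherin (-0.76), was lower and *Cdh2*, N-cadherin (0.39), higher, and among 13 FGF ligands and receptors, whose median was -0.27, *Fgf9* (-0.79) was lower and *Fgf17* (1.12) higher. *Hoxb1* (-0.62) was lower among 11 anterior Hox genes.

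Of 24 hypoxia and glycolysis genes, 0 had an unadjusted p below 0.05 in either direction, 19 values were negative and the median was -0.11. Without replicate 1 of the 1.5 mM gels 9 members were lower, where 7.23% of all genes tested were lower, and the median was -0.26. The median was 0.025 with 9 negative values without replicate 1 of the 1.0 mM gels, -0.010 and -0.049 without replicates 2 and 3 of the 1.5 mM gels, and -0.21 without replicate 3 of the 1.0 mM gels. Replication-dependent histone genes, whose transcripts mostly lack poly-A tails, had a median of 0.03 at 72 h and 1.17 at 96 h. Their level per library at 72 h was -0.43, 0.31 and 0.45 in 1.0 mM and 1.13, -0.17 and -1.12 in 1.5 mM gels, and 3 of the 19 intervals lay within -1 to 1.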
